A study of Mus musculus with 504 samples.

Results

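Tenascin C (Tnc) and 6 other genes of secreted matrix proteins were followed through sorted mammary tumour cells of lineage-traced mice: Fn1 (fibronectin), Sparc (osteonectin), Postn (periostin), Thbs1 and Thbs2 (thrombospondins) and Spp1 (osteopontin). The 7 genes were taken by name from the 55450 genes of the count table, with no threshold on their values, and all 7 had reads in sorted cells. Tnc has a particular place among them, since its own regulatory sequence drives the colour switch in one of the mouse lines.

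Matricellular proteins are secreted into the extracellular matrix, where they act mainly as signals to cells through integrins and other receptors rather than as structural fibres. Tenascin C and periostin are best known from wound edges, tumour stroma and metastatic niches, and fibronectin, a fibril-forming glycoprotein often discussed with them, is a classical mark of epithelial-to-mesenchymal transition (EMT). In tumours most of these proteins come from fibroblasts and other stromal cells, while osteopontin is also made by mammary epithelium and by macrophages.

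The Cdh2-CreERT2 line and the Tnc-CreERT2 line differ in the gene that drives Cre and share the other alleles, which are MMTV-PyMT, MMTV-Flpo and the reporter RC::FrePe. Their animals carry the prefixes Cdh and TENA, which also name the lines in the plots. MMTV-PyMT gives mammary tumours, MMTV-Flpo makes tumour cells of the mammary epithelium mCherry-positive, and tamoxifen-activated Cre turns such a cell GFP-positive for good, so that GFP records past and not present activity of Tnc or Cdh2. Tamoxifen was given to all animals of both lines (2 mg per dose, 2 doses weekly, starting in week 9), and tumours were taken in week 13 or 14, so no group is free of tamoxifen. The sorted populations of the Tnc-CreERT2 line were P22 (both colours, EpCAM high), the GFP-positive P09 (GFP high, EpCAM medium), P16 (EpCAM medium), P10 (EpCAM low) and P15 (EpCAM-negative), and the mCherry-positive P05 (EpCAM-negative), P17 (EpCAM high) and P18 (mCherry high, EpCAM high). Those of the Cdh2-CreERT2 line were P15, P05 and P18. P18, which kept mCherry and EpCAM, is the population each of the others was compared with. The gate of P09 comes from the labels of its samples. The study's design text gives that gate under P18, so the identity of P09 is less certain than that of the others. The source label speaks of cell lines, while the growth protocol says that cells came straight from tumours.

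Each library was a pool of 5 cells made by Smart-seq2, which copies full-length polyadenylated RNA and carries no molecular identifiers. The labels mark 335 pools as having passed quality control, with 313655 to 27849014 counts each. They came from 3, 1 and 5 Cdh2-CreERT2 animals for P15 (16 pools), P05 (10) and P18 (50), and from 5 Tnc-CreERT2 animals for P22 (50), P09 (48), P05 (32) and P18 (55), 4 for P16 (26) and P10 (25), and 3 for P15 (12) and P17 (11). Counts were summed per animal and population into 43 sums, and levels are CPM (reads of a gene per 1000000 reads) of those sums on TMM-scaled library sizes, as mean ± SD over animals. Values of single pools, and thresholds on pools, are CPM on each pool's own count total, without TMM scaling. The EpCAM-negative gates did not hold a single kind of cell, and Epcam itself reached 10 CPM in 9 of 16 pools of Cdh2-CreERT2 P15. Ptprc, the pan-leukocyte gene, reached 10 CPM in 0 of 16 pools of Cdh2-CreERT2 P15, which allows a share of up to 18.75% (3 pools of 16, as if pools of the same animal were independent, which 16 pools of 3 animals are not), and in 12 of 12 pools of Tnc-CreERT2 P15. The only P15 pool of TENA2524 had 11.8 CPM of Ptprc, and 9.63 CPM on the TMM scale of the sums. Ptprc reached 10 CPM in 7 of 32 pools of Tnc-CreERT2 P05, where the fibroblast collagen Col1a1 did so in 16 of 32. Krt8, a keratin of luminal epithelium, did so in 4 of 16 pools of Cdh2-CreERT2 P15, 0 of 12 of Tnc-CreERT2 P15 and 10 of 32 of Tnc-CreERT2 P05, against 50 of 50 in Cdh2-CreERT2 P18 and 55 of 55 in Tnc-CreERT2 P18. In any of these sums, fewer cells with a transcript and less of it per cell cannot be told apart.

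Tnc lies on the minus strand of chromosome 4 (63959785 to 64047015 in GENCODE M21 on GRCm38), and the sequence before its start is shown because the same gene's control region drives Cre in the Tnc-CreERT2 line. Those of Sparc, Postn and Thbs2 are shown because these genes were read in most pools of Cdh2-CreERT2 P15. RefSeq sequences (GRCm38.p6) were found for 5 of the 7 genes, Tnc, Postn, Thbs2, Sparc and Spp1, and cover the 250 bases before the start, 5′ to 3′, with TATAAA on either strand in capitals.
Tnc, chr4:64047016-64047265, minus strand: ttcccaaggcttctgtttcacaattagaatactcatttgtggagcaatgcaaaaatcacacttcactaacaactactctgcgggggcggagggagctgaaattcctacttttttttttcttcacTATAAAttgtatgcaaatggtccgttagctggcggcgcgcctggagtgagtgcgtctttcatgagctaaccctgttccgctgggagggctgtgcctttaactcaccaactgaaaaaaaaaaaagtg
Sparc, chr11:55420081-55420330, minus strand: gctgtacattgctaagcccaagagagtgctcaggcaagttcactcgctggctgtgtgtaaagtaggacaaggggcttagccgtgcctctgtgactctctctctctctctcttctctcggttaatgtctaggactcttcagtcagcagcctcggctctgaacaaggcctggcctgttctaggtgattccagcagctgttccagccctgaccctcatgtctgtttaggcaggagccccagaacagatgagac
Postn, chr3:54360857-54361106, plus strand: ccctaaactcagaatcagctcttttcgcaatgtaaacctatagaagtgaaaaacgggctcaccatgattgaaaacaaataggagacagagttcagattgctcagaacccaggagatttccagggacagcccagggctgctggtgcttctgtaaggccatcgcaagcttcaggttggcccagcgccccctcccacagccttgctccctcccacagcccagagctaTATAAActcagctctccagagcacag
Thbs2, chr17:14694263-14694512, minus strand: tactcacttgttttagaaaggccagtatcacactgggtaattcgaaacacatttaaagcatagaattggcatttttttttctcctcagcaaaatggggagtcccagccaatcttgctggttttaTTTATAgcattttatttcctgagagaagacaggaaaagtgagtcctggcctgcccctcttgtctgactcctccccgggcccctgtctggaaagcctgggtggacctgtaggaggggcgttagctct
RefSeq gives Tnc and Postn another start each, and the windows shown are those of the starts nearest to the GENCODE ones, while the Sparc start lies inside the GENCODE gene. TATAAA starts at position -26 from the start of Postn and at -126 from that of Tnc. From the other Tnc start it lies at -205, and the windows of Sparc and of the other Postn start do not hold it. In Thbs2 it reads on the opposite strand (TTTATA) at -126. Of all 32851 promoter windows of that length, 12.4% hold TATAAA. The AP-1 motif TGANTCA, the TEAD motif GGAATG and CACCTG, an E-box read by Zeb and Snail proteins, were also searched on both strands. None of these 3 is in the windows shown, and 6.75%, 12.6% and 17.2% of all windows hold them. The window of the Spp1 start nearest to the GENCODE one, not shown, holds CACCTG on the opposite strand at -98 and TATAAA at -211.

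Tnc transcripts were scarce in every population, the GFP-positive ones of its own reporter line included. In P22 of the Tnc-CreERT2 line the 5 animals had 0.911, 3.29, 3.71, 7.15 and 10.4 CPM, and in P09 they had 1.65, 1.73, 2.03, 2.20 and 5.43 CPM. P16 held 0, 0.145, 5.19 and 66.8 CPM, P10 held 0, 2.94, 35.0 and 35.6 CPM, and P15 held 0, 0 and 67.6 CPM. The mCherry-positive P05 held 0.0947, 8.60, 33.6, 68.5 and 131 CPM and P17 held no Tnc read in 3 animals, against 0, 0.320, 0.641, 2.28 and 4.52 CPM in P18. Thus P05, which is mCherry-positive, had the highest mean of the line, and every population overlapped P18 except that P17 lay at 0, level with the lowest P18 animal.

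In the Cdh2-CreERT2 line Tnc was read least in P15, with 0, 0 and 0.331 CPM, a total of 3 counts. P05 of a single animal had 1.89 CPM, and P18 had 0, 0.102, 1.03, 1.77 and 3.99 CPM.

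**Figure D1:**
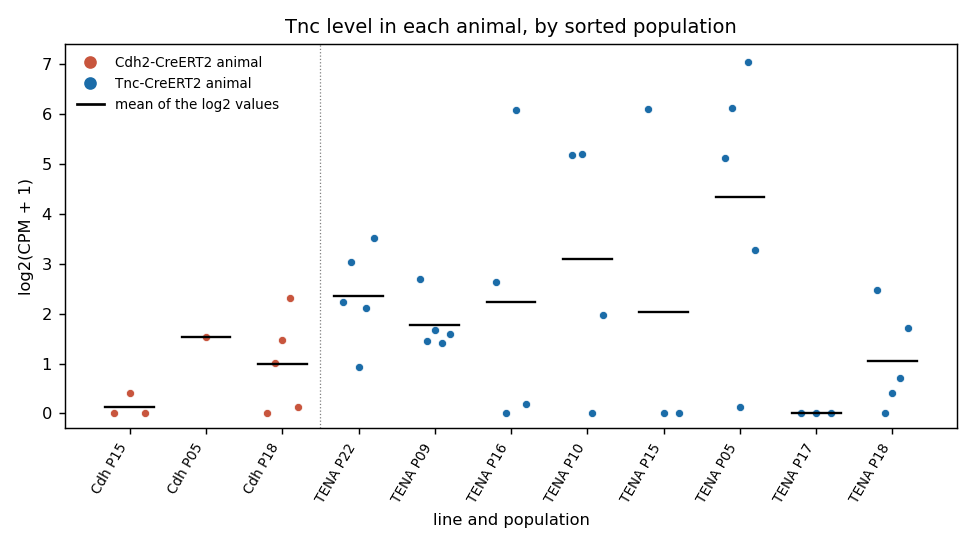
Tnc level of each animal (points, log2 of CPM + 1) by line and sorted population, with the mean of the log2 values as a bar. The 5 animals of Tnc-CreERT2 P05 range from 0.0947 to 131 CPM, and those of P18 from 0 to 4.52 CPM.

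The order of the means was 48.4 ± 53.3 CPM in Tnc-CreERT2 P05, 22.5 ± 39.0 in P15, 18.4 ± 19.6 in P10, 18.0 ± 32.6 in P16, 5.09 ± 3.70 in P22, 2.61 ± 1.59 in P09, 1.55 ± 1.88 in P18, 1.38 ± 1.63 in Cdh2-CreERT2 P18, 0.110 ± 0.191 in its P15 and 0 in Tnc-CreERT2 P17. No neighbours in that order differed by more than the larger of their SDs. Single pools carried the upper part of it. Without pool R3 of animal TENA2483 the mean of P15 was 0, without R8 of TENA2524 that of P05 was 22.2 CPM, without R11 of TENA2462 that of P10 was 9.80 CPM, and without R3 of TENA2517 that of P16 was 5.23 CPM. Leaving out TENA2483 turned the fitted log2 fold change of P15 over P18 to -7.90, against 3.56 ± 2.64 (SE) with all animals.

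Counted over pools, Tnc was a gene of few pools. It reached 10 CPM in 14 of 50 pools of P22, 7 of 48 of P09, 5 of 26 of P16, 4 of 25 of P10, 1 of 12 of P15, 8 of 32 of P05 and 0 of 11 of P17, against 2 of 55 of P18. By animal, P22 had 4 of 8, 5 of 12, 3 of 12, 2 of 11 and 0 of 7 such pools, against 1 of 12, 0 of 12, 1 of 12, 0 of 11 and 0 of 8 in P18 of the same animals, so the share was higher in 4 of 5 animals. The 14 P22 pools held 10.8 to 37.7 CPM. All 14 also held Krt8, Epcam and Spp1 at 10 CPM or more, as did all 50 P22 pools. Vim, which encodes vimentin, was in 13 of the 14 and in 28 of all 50. Col1a1 was in 1 of the 14 and in 1 of all 50. Of the 8 P05 pools with Tnc, 6 held Col1a1. In 24 of 50 P22 pools and 33 of 48 P09 pools there was no Tnc read.

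The differences were tested over animals with edgeR's quasi-likelihood test, fitted on all 33768 genes with the animal as a block and adjusted by the Benjamini-Hochberg method. None of the 7 genes passed an adjusted p of 0.05 in any comparison. In the Tnc-CreERT2 line 0.0% of all genes passed for P22, 0.0% for P09, 0.00296% for P16 and 0.00296% for P10, each against P18, and 0 of 7 members had an unadjusted p below 0.05 there. Of all genes, 2.12%, 2.52%, 6.11% and 8.23% had such a p, in the same order. DESeq2 and limma-trend called no member in these 4 comparisons either. DESeq2 called 836, 1252, 1189 and 1680 of all 33768 genes there, and limma-trend 1, 0, 4 and 3.

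P05, the EpCAM-negative mCherry-positive population, set the members apart from P18 most widely. Sparc, a collagen-binding glycoprotein, had 176, 1802, 3608, 3662 and 6865 CPM in P05, against 1.34, 3.87, 9.09, 17.2 and 19.4 CPM in P18. The animals of the 2 groups did not overlap. The fitted log2 fold change was 7.90 ± 1.99 (SE), with an adjusted p of 0.0586 in edgeR, higher in 5 of 5 animals. Fn1 had 9.38, 128, 382, 460 and 1573 CPM in P05, against 0.0222, 0.496, 0.792, 2.20 and 4.07 CPM in P18. It too did not overlap, with a log2 fold change of 8.62 ± 2.48 and an adjusted edgeR p of 0.0932, higher in 5 of 5 animals. Of all genes, 1.19% were higher in P05 without overlap, and 0.545% passed the adjusted test in either direction.

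Postn, which binds collagen and integrins, had 0, 496, 1065, 1703 and 2172 CPM in P05, against 0, 0.767, 1.23, 4.01 and 7.42 CPM in P18. The groups overlapped because animal TENA2517 had no read in its 3 pools of P05, and the log2 fold change was 7.85 ± 3.31, with an adjusted edgeR p of 0.287. Thbs2, an inhibitor of vessel growth, had 0, 0.260, 163, 209 and 586 CPM in P05, against 0.575, 0.817, 1.35, 2.12 and 6.09 CPM in P18, so that 2 of the 5 P05 animals lay within or below the P18 range. Its fitted log2 fold change was 7.24 ± 2.86, with an adjusted edgeR p of 0.252. Thbs1, which activates TGF-beta, had 52.9, 438, 668, 1715 and 4032 CPM in P05, against 74.7, 94.8, 99.0, 135 and 152 CPM in P18, with a log2 fold change of 3.65 ± 1.57. Spp1 ran the other way, with 56.7, 128, 260, 926 and 1365 CPM in P05, against 1073, 5363, 5424, 7007 and 8702 CPM in P18. It was lower in 5 of 5 animals, although the ranges met, and its fitted log2 fold change was -3.48 ± 1.60. For Tnc the fitted value was 5.42 ± 2.28, with an adjusted edgeR p of 0.288, higher in 4 of 5 animals.

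All 7 members had an unadjusted p below 0.05 for P05 over P18, against 13.3% of all genes. DESeq2 called 6 of 7, all but Spp1, where it called 13.5% of all genes. Limma-trend with every pool weighing the same called 3 of 7 (Sparc, Fn1 and Postn), against 4.0% of all genes. The median log2 fold change was 7.24 over the 7 members and -0.15 over all genes tested.

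**Figure D2:**
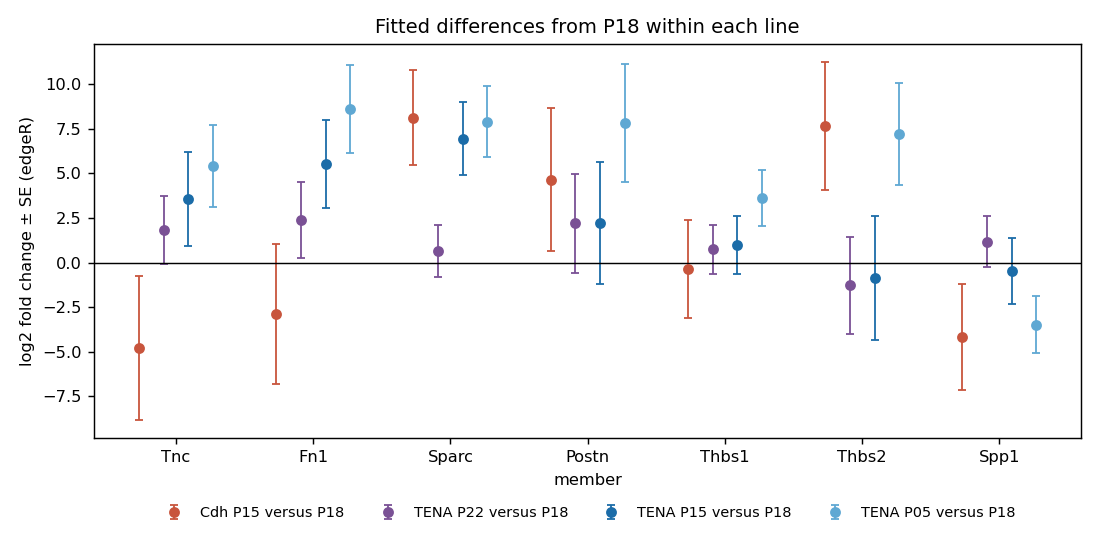
Log2 fold change over P18 of the same line (edgeR, points, with the SE as bars) of the 7 members in Cdh2-CreERT2 P15 and in Tnc-CreERT2 P22, P15 and P05. Sparc lies at 8.13, 0.65, 6.94 and 7.90 in that order. No point passed an adjusted p of 0.05 in edgeR, and Tnc in Cdh2-CreERT2 P15 rests on 3 counts.

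Markers of other cells moved with the P05 values. The summed level of 10 fibroblast markers was 11.3 to 17388 CPM in P05 and 0.206 to 7.70 CPM in P18, and 7 of the 10 rose by the adjusted edgeR test, Col1a1 by 12.89 ± 2.15 on the log2 scale (adjusted p = 0.0107). The summed level of 10 macrophage and leukocyte markers was 24.0 to 12864 CPM in P05 and 1.22 to 4.60 CPM in P18, and 1 of the 10, Fcer1g, rose. The 10 epithelial markers summed to 143 to 1651 CPM in P05 and 9663 to 22884 CPM in P18, and 3 of them, Cldn4, Cldn7 and Krt8, fell. The 8 endothelial markers summed to 0.346 to 424 CPM in P05 and 1.08 to 2.87 CPM in P18, with 0 called. Within P05, 15 of the 16 pools with Col1a1 at 10 CPM held Sparc at that level, 14 held Fn1, 14 held Postn and 12 held Thbs2, against 8, 3, 6 and 3 of the 16 pools without it. In 10 pools neither Col1a1 nor Ptprc reached 10 CPM, and 6 of these held Sparc, 6 Postn, 3 Thbs2 and 2 Fn1. The part of fibroblast, leukocyte, endothelial or epithelial RNA in the P05 differences was not tested.

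P15 of the Tnc-CreERT2 line, the GFP-positive EpCAM-negative cells, was uneven between its 3 animals. Sparc had 13.2, 557 and 1799 CPM, against 1.34 to 19.4 CPM in the 5 animals of P18, where the lowest P15 animal lay within the P18 range. The log2 fold change was 6.94 ± 2.05, with an adjusted edgeR p of 0.101, higher in 3 of 3 animals, and it was 4.28 without TENA2524, whose P15 is a single pool. Fn1 had 0, 113 and 699 CPM in P15, against 0.0222 to 4.07 CPM in P18, with a log2 fold change of 5.53 ± 2.46. Pool R4 of TENA2483 held 3755 CPM of Fn1, with Ptprc and the macrophage receptor gene Csf1r, and without it the mean of P15 was 150 CPM in place of 271 CPM. Postn (0, 19.3 and 47.7 CPM) and Thbs2 (0, 0 and 8.49 CPM) stayed low in P15 beside the levels of P05.

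For P15 over P18, 2 members (Sparc and Fn1) had an unadjusted p below 0.05, against 15.2% of all genes, and 0 of 7 passed the adjusted edgeR test, against 0.729%. No member was higher in P15 without overlap, against 0.764% of all genes. DESeq2 called the same 2, where it called 14.5% of all genes, and limma-trend called Sparc, where it called 4.26%. Ptprc was read at 11.8 CPM or more in every one of the 12 pools. The 10 macrophage and leukocyte markers summed to 3025 to 13198 CPM in P15 and 1.22 to 4.60 CPM in P18, and 3 of the 10 rose, while 7 of 10 epithelial markers fell. The 10 fibroblast markers summed to 0.847 to 611 CPM in P15 and 0.206 to 7.70 CPM in P18, and 2 of them, Lum and Islr, rose. Their part in the P15 values was not tested. Pool R3 of TENA2483 held all 7 members at 10 CPM or more, with 42197 CPM of Spp1, 2200 of Sparc, 483 of Col1a1 and 76.9 of Ptprc.

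P15 over P05, both EpCAM-negative, gave lower values of Tnc, Sparc and Thbs1 in 3 of 3 shared animals and of Postn and Thbs2 in 2 of 3, the third having no read in either. Some of these were near ties. Tnc had 67.6 CPM in P15 and 68.5 in P05 of TENA2483, and 0 and 0.0947 CPM in TENA2517. In TENA2524, Sparc had 1799 CPM in P15 and 1802 in P05, and Thbs2 had 0 and 0.260 CPM. Fn1 was higher in P15 in 2 of 3 animals, although its fitted log2 fold change was -3.09 ± 2.68, and Spp1 was higher in 2 of 3, with 3.02 ± 1.78, or 0.49 without TENA2483. Leaving out TENA2524, a single pool of P15, turned the fitted value of Tnc to 0.25, against -1.87 with all animals and -12.95 without TENA2483. Thbs2 had the only unadjusted edgeR p below 0.05, with a log2 fold change of -8.11 ± 3.88 and an adjusted p of 0.474. That is 1 of 7 members, against 10.3% of all genes, and 0 of 7 passed the adjusted test, against 0.136%. DESeq2 called Thbs2 and 16.7% of all genes.

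P15 of the Cdh2-CreERT2 line was sorted by the same gate, and all 3 of its animals held Sparc, Thbs2 and Postn at 99.5 CPM or more. Sparc had 371, 398 and 476 CPM in P15, against 0, 1.86, 4.13, 5.03 and 5.33 CPM in P18. Thbs2 had 202, 449 and 582 CPM in P15, against 0, 0, 2.51, 3.09 and 4.53 CPM in P18. Neither gene overlapped between the groups, and 4.07% of all genes were higher in P15 without overlap. Postn had 99.5, 187 and 199 CPM in P15, against 0.0291, 0.738, 1.56, 3.43 and 137 CPM in P18. The overlap in Postn came from animal Cdh1624, whose P18 sum holds 2 pools. Fn1 had 0, 0 and 56.0 CPM in P15, against 0.0436 to 2.67 CPM in P18, and the 56.0 CPM came from 1 pool, R3 of Cdh1624.

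The 3 genes were read in most single pools. Sparc reached 10 CPM in 16 of 16 pools of P15 (64.3 to 784 CPM), Postn in 14 (0 to 516 CPM over all 16) and Thbs2 in 14 (0 to 1273 CPM over all 16), against 7, 4 and 5 of 50 pools of P18. Fn1 did so in 1 of 16 and Tnc in 0 of 16, which allows a share of up to 18.75% on the same assumption. Col1a1 reached 10 CPM in 1 of the 16 pools, with 15.4 CPM, and Ptprc had no read in any. Fibroblast markers summed to 62.8 to 156 CPM in P15 and 0.0581 to 25.2 CPM in P18, and the 10 macrophage and leukocyte markers to 1.04 to 18.5 CPM in P15 and 0.262 to 67.1 CPM in P18, with 7 of the 10 at 0 in P15. Cdh2, whose gene drives the switch here, reached 10 CPM in 10 of 16 pools of P15 and 0 of 50 of P18. Per kilobase of exon, mean levels in P15 were 377 CPM for Spp1, 110 for Sparc, 58.7 for Thbs2, 18.6 for Postn, 6.10 for Thbs1, 1.60 for Fn1 and 0.0142 for Tnc.

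**Figure D3:**
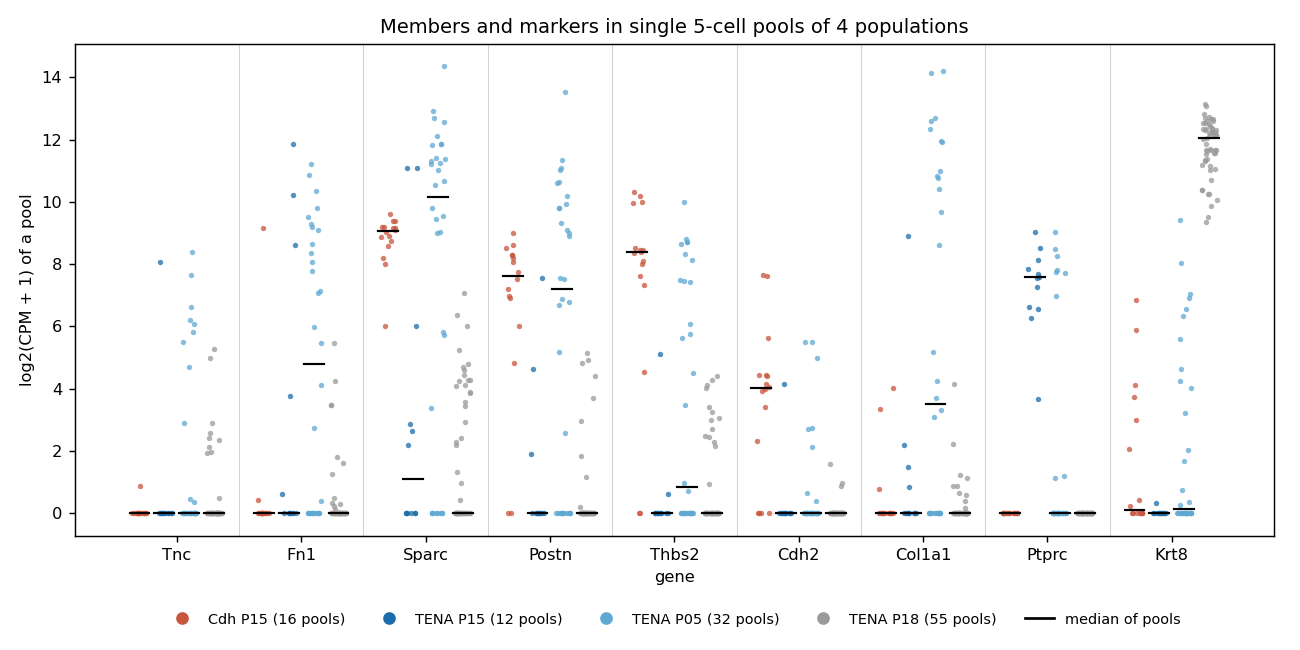
Level in single 5-cell pools (points, log2 of CPM + 1) of 5 members and 4 markers in Cdh2-CreERT2 P15 and in Tnc-CreERT2 P15, P05 and P18, with the median of pools as a bar. Sparc, Postn and Thbs2 have medians of 534, 197 and 332 CPM in the 16 pools of Cdh2-CreERT2 P15, where Tnc, Fn1, Col1a1 and Ptprc have medians of 0.

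The fitted log2 fold changes of P15 over P18 in this line were 8.13 ± 2.65 for Sparc, 7.66 ± 3.60 for Thbs2 and 4.65 ± 4.01 for Postn, each higher in 3 of 3 animals. Adjusted edgeR p-values were 0.845 for Sparc and 1.0 for Thbs2 and Postn, in a comparison in which 0.0% of all genes passed. At an unadjusted p below 0.05 there were 2 of 7 members, Sparc and Thbs2, against 3.6% of all genes. The same 2 were called by DESeq2, which called 5.61% of all genes, and by limma-trend, which called 2.07%. For Tnc, at 0.110 ± 0.191 CPM in P15 and 1.38 ± 1.63 CPM in P18, the fitted value was -4.78 ± 4.04, and -8.82 to -1.43 with an animal left out. Over counts pooled from 3 animals of P15 and 5 of P18 the log2 ratio was -6.56, with an exact 95% interval of -8.84 to -5.00. The interval takes reads as independent and does not cover the spread between animals. Spp1 had 49.7, 93.3 and 1718 CPM in P15, against 621, 1844, 6873, 10633 and 10845 CPM in P18.

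Between the lines, P15 of Cdh2-CreERT2 and P15 of Tnc-CreERT2 differed most in Thbs2 among the 6 members tested. It had 202, 449 and 582 CPM in Cdh2-CreERT2 P15 and 0, 0 and 8.49 CPM in Tnc-CreERT2 P15, a log2 fold change of 7.02 ± 2.11 with an adjusted edgeR p of 0.155. Postn, at 99.5 to 199 CPM in Cdh2-CreERT2 P15 and 0 to 47.7 CPM in Tnc-CreERT2 P15, also did not overlap, with a log2 fold change of 2.80 ± 1.80. With 3 animals on either side 21.7% of the 14028 genes tested were higher in Cdh2-CreERT2 without overlap. Of the 6 members tested, 1 had an unadjusted p below 0.05, against 10.6% of genes, and 0 passed the adjusted test, against 0.0%. DESeq2 called Thbs2 and 9.49% of genes, and limma-trend called no member and 0 of the 14028 genes. Tnc was not tested here. It had 3 counts in Cdh2-CreERT2 P15 and 1951 in Tnc-CreERT2 P15, all of the 1951 from pool R3 of TENA2483, and the other 11 pools of Tnc-CreERT2 P15 had no read. The difference between the lines in P15 over P18 passed for 0 of 7 members, against 0.00888% of all genes. It had no unadjusted p below 0.05 among the members, against 6.94% of all genes. Its estimate was 8.53 ± 4.72 for Thbs2, 1.19 ± 2.91 for Sparc, -8.34 ± 4.87 for Tnc and -8.42 ± 5.20 for Fn1. Without TENA2483 that of Tnc was 3.18. DESeq2 called Tnc and Fn1 in this difference, with 9.89% of all genes. In P18 of Cdh2-CreERT2 over P18 of Tnc-CreERT2 the log2 fold change was 3.55 ± 1.91 for Postn, with -1.08 when animal Cdh1624 is left out, and -1.68 ± 0.885 for Sparc. There 0 of 7 members passed, against 0.0% of 17878 genes, and 0 of 7 had an unadjusted p below 0.05, against 2.41%. Neither DESeq2 nor limma-trend called a member, and they called 3 and 0 of the 17878 genes. All 5 Cdh2-CreERT2 animals were sequenced on lane 2 with 1 of the 5 Tnc-CreERT2 animals, TENA2524, and the other 4 on lane 1, so line and lane overlap in large part. Within lane 2, Thbs2 had 202 to 582 CPM in Cdh2-CreERT2 P15 and 0 CPM in the P15 sum of TENA2524, which holds a single pool. Postn had 99.5 to 199 CPM and 19.3 CPM there. The part of the lane in the differences between lines was not tested.

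P05 of the Cdh2-CreERT2 line came from 1 animal, and its values have no replicate check. Sparc was at 2412 CPM, Thbs2 at 490, Postn at 462, Fn1 at 303 and Tnc at 1.89 CPM. Pool R8 weighed heavily, and without it Sparc was at 774, Thbs2 at 202, Postn at 203 and Fn1 at 39.2 CPM. Without pool R6, Tnc was at 0.167 CPM. Of its 10 pools 8 held Sparc at 10 CPM, 7 Postn, 5 Thbs2 and 3 Fn1, while 2 held Col1a1 and 2 Ptprc. All 6 pools with neither Col1a1 nor Ptprc at 10 CPM held Sparc and 5 held Postn.

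**Figure D4:**
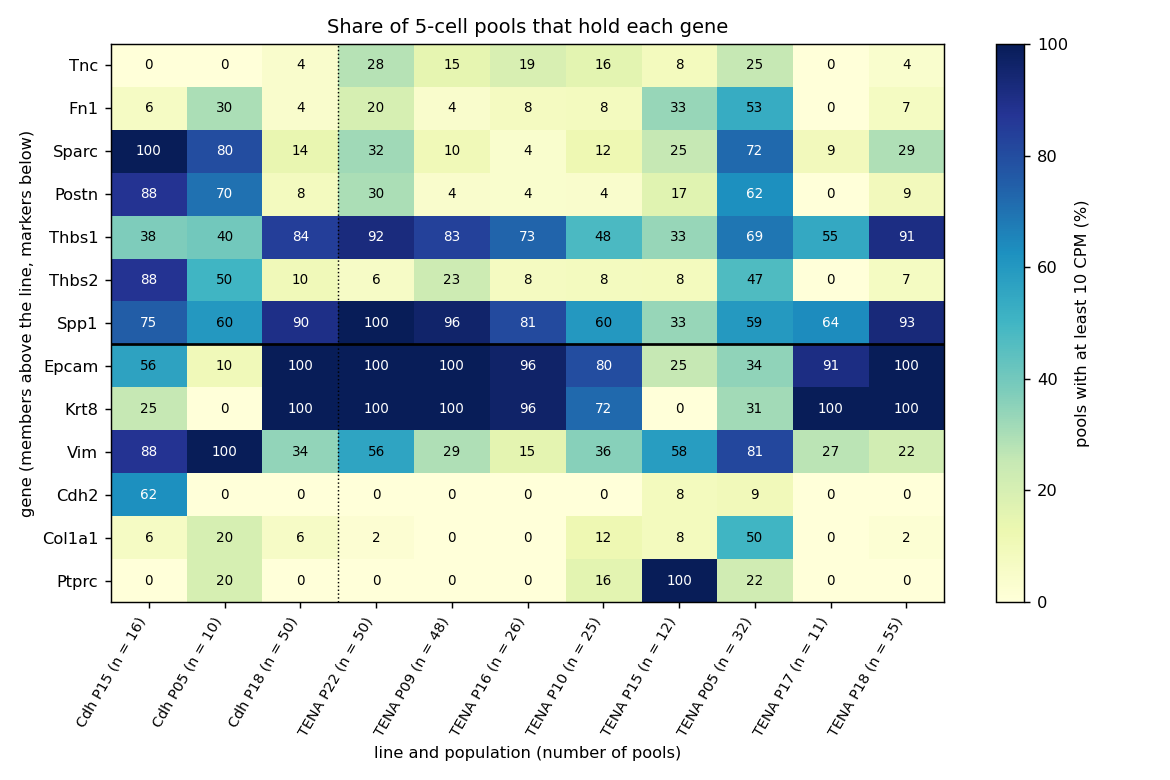
Share of 5-cell pools, in percent, that held each gene at 10 CPM or more, by line and population, with the 7 members above the line and 6 markers below it. Sparc is in 16 of 16 pools of Cdh2-CreERT2 P15 and Ptprc in none of them, while Ptprc is in 12 of 12 pools of Tnc-CreERT2 P15.

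P22, the cells that held both colours and EpCAM, gave small amounts of several members in one pool. Sparc had 6.10, 9.87, 19.8, 26.3 and 36.4 CPM in P22, against 1.34, 3.87, 9.09, 17.2 and 19.4 CPM in P18, higher in 5 of 5 animals with overlapping ranges. Postn had 4.28, 8.82, 10.1, 28.5 and 39.1 CPM in P22, against 0 to 7.42 CPM in P18, higher in 4 of 5 animals. Fn1 had 0.586, 1.77, 3.06, 13.2 and 20.4 CPM in P22, against 0.0222 to 4.07 CPM in P18, higher in 3 of 5 animals and lower in 2. The log2 fold changes were 0.65 ± 1.48, 2.20 ± 2.79 and 2.39 ± 2.12 for Sparc, Postn and Fn1. Pools with 10 CPM numbered 16 of 50 for Sparc, 15 for Postn and 10 for Fn1 in P22, against 16, 5 and 4 of 55 in P18. In P22, 10 of 50 pools held 5 or more members at that level, 4 each in TENA2483 and TENA2560, 1 each in TENA2462 and TENA2524 and 0 in TENA2517, against 0 of 55 in P18. There were 14 of 32 such pools in P05, 1 of 25 in P10, 1 of 12 in P15, 0 of 48 in P09 and 0 of 26 in P16, and 3 of 16 in Cdh2-CreERT2 P15. All 50 P22 pools held Epcam and Krt8, 1 held Col1a1 and 0 held Ptprc. Krt14, a keratin of basal cells, was in 43 of 50 pools of P22 with a median of 182 CPM, against 32 of 55 pools of P18 with a median of 24.8 CPM, and its part in the P22 values was not tested. The 10 fibroblast markers summed to 0.0506 to 7.86 CPM in P22 and 0.206 to 7.70 CPM in P18. No test of these pool counts was made.

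Among the GFP-positive cells that kept some EpCAM, P10 had higher means of Sparc, Fn1 and Postn than P09 and P16, with a wide spread between animals. These populations were not tested against each other. The 10 macrophage and leukocyte markers summed to 8.59 to 8873 CPM in P10, at most 6.47 in P09 and 1.22 to 4.60 in P18, and all 10 had fitted values above 0 in P10 over P18, with 0 called. Pool R6 of TENA2517, which added most to the P10 mean of Fn1, held 149 CPM of Fn1 and 309 CPM of Ptprc. The highest Fn1 of a P10 pool was 163 CPM, in TENA2483. The part of leukocyte RNA in the P10 values was not tested. Sparc averaged 4.97 ± 5.65 CPM in P09, 1.18 ± 1.36 in P16 and 44.6 ± 74.7 in P10 (5.96 without pool R11 of TENA2462), against 10.2 ± 7.96 in P18. Postn averaged 3.89 ± 8.67, 0.624 ± 1.23 and 17.4 ± 34.6 CPM in P09, P16 and P10, each carried by 1 animal, against 2.69 ± 3.05 in P18, and that of P10 was 0.0392 CPM without pool R11 of TENA2462. Fn1 averaged 0.788 ± 1.75, 1.48 ± 1.65 and 28.6 ± 33.8 CPM, against 1.51 ± 1.64. Thbs2 was in 11 of 48 pools of P09 at 10 CPM, in 4 of 5 animals, against 4 of 55 pools of P18, in 1 of 5. Its sums were 0.130, 1.80, 3.83, 9.71 and 15.5 CPM in P09, against 0.575 to 6.09 CPM in P18, and its log2 fold change was 0.94 ± 2.81, or -0.40 without TENA2524.

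Thbs1 and Spp1 were the members read in most EpCAM-positive pools. Thbs1 reached 10 CPM in 46 of 50 pools of P22, 40 of 48 of P09, 19 of 26 of P16, 12 of 25 of P10 and 4 of 12 of P15, against 50 of 55 of P18. Its means were 197 ± 139 CPM in P22, 293 ± 212 in P09, 487 ± 592 in P16 (274 without pool R3 of TENA2517), 352 ± 236 in P10 and 170 ± 140 in P15, against 111 ± 31.5 in P18. Fitted log2 fold changes over P18 ran from 0.74 in P22 to 2.25 in P16 among these 5 populations and lay at -1.59 in the EpCAM-high P17, lower in 3 of 3 animals, and none had an unadjusted p below 0.05. In P16, 1 animal (TENA2483) is a single pool in which all 7 members were at 0.

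Spp1 was the most abundant member of P18, also per kilobase of exon, with 3346 CPM per kilobase in Tnc-CreERT2 P18 beside 18.3 for Thbs1 and 2.69 for Sparc. In Tnc-CreERT2 P05 it stood below Sparc, at 332 and 851 CPM per kilobase. Spp1 had 5839, 7459, 9352, 15452 and 15948 CPM in P22, against 1073, 5363, 5424, 7007 and 8702 CPM in P18. The value was higher in P22 in 5 of 5 animals, with ranges that overlap and a log2 fold change of 1.17 ± 1.44. It averaged 6165 ± 4258 CPM in P09, 4903 ± 4494 in P16, 3561 ± 3989 in P10 and 3915 ± 5871 in P15, where it was 360 CPM without pool R3 of TENA2483. All 50 pools of P22 held it at 10 CPM, against 51 of 55 of P18.

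**Figure D5:**
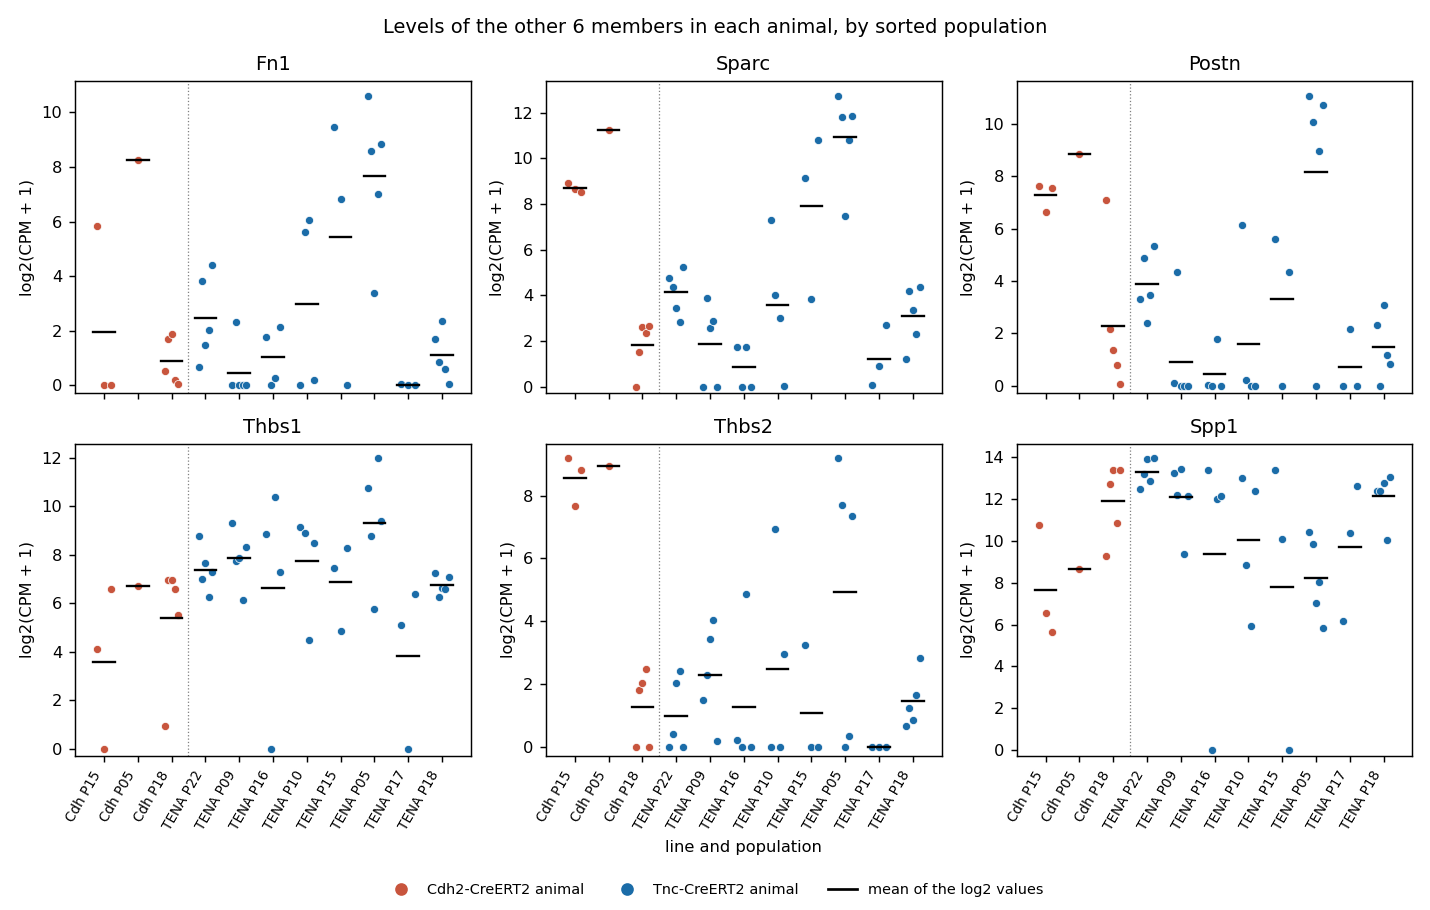
Level of each animal (points, log2 of CPM + 1) of Fn1, Sparc, Postn, Thbs1, Thbs2 and Spp1 by line and sorted population, with the mean of the log2 values as a bar. The 3 animals of Cdh2-CreERT2 P15 lie at 371 to 476 CPM of Sparc, above all 5 animals of its P18, while Spp1 in Tnc-CreERT2 P05 lies at 56.7 to 1365 CPM.

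P17, the mCherry-positive cells that kept EpCAM, came from 3 animals and 11 pools, in which Spp1 and Thbs1 were the members with most reads. Spp1 had 72.0, 1319 and 6392 CPM in P17, against 1073 to 8702 CPM in P18, and reached 10 CPM in 7 of 11 pools. Thbs1 had 0, 33.3 and 81.2 CPM in P17, against 74.7 to 152 CPM in P18, and reached 10 CPM in 6 of 11 pools. Tnc and Thbs2 had 0 counts, Fn1 had 1 count and Postn was in 0 pools at 10 CPM, which allows a share of up to 27.3% on the same assumption. For these 0 counts a floor of 3 counts over the group was set, on counts pooled over 3 animals of P17 and 5 of P18. On the log2 scale this put P17 at least 4.96 below P18 for Tnc and at least 5.54 below for Thbs2. Such bounds take reads as independent and do not cover the spread between animals. P18 of TENA2483 also had 0 Tnc counts, and 307 of the 583 in P18 came from TENA2462. Neither animal is among the 3 of P17. For Fn1 the log2 ratio of pooled counts was -6.20, with an exact 95% interval of -11.50 to -3.71 on the same terms. Thbs2 was lower in every P17 animal than in any P18 animal, as were 7.31% of all genes. Tnc and Thbs2 had an unadjusted p below 0.05, against 5.02% of all genes, and 0 of 7 members passed the adjusted edgeR test, against 0.0%. DESeq2 called the same 2, with 5.25% of all genes, and limma-trend called no member, with 2 of 33768 genes called. All 7 fitted values were below 0, except that Postn was at 1.66 without TENA2517, and their median was -2.72, against -0.40 over all genes.

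Over the 43 sums of both lines, which share animals, the closest pair among the members was Sparc and Postn (Pearson r of log2(CPM + 1) = 0.81), followed by Tnc and Thbs1 (0.67) and Fn1 and Sparc (0.67). Among 20047 genes, those most like Tnc were Ephb2 (0.73), an ephrin receptor, Gabbr1 (0.70), Tnip1 (0.68), Thbs1 (0.67) and Clec16a (0.66). By Spearman's rho Thbs1 came first, at 0.79. The genes most like Sparc were Fbn1 (0.90), Bgn (0.88) and Col5a2 (0.88), all of the fibrous matrix, and those most like Postn were Spon1 (0.89), Bgn (0.85) and Col5a2 (0.84). Fn1 stood nearest to Lsp1 (0.85), a leukocyte protein, Cd302 (0.85) and Gngt2 (0.83). Thbs2 stood nearest to Dclk1 (0.87) and Osr1 (0.85), Thbs1 to Fosl2, Gabarapl1 and Adamts1 (0.71 each), and Spp1 to Tspo (0.79), Csn3 (0.78), a milk casein, and Plin2 (0.76). These values describe the sums and carry no test.

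Among 26 other matricellular genes, 2 rose in P05 over P18 of the Tnc-CreERT2 line by the adjusted edgeR test and 0 fell, where 0.545% of all genes passed in either direction. Thbs4 averaged 311 CPM in P05 and had 0 counts in P18, and Tgfbi averaged 148 CPM in P05 and 0.00417 CPM in P18 (adjusted edgeR p = 0.0325 each). The median log2 fold change of the 26 was 4.09, against -0.15 over all genes. Of 20 receptors of matricellular proteins 1 rose in P05, Lrp1, an endocytic receptor of thrombospondins, by 10.66 ± 2.51 on the log2 scale (adjusted edgeR p = 0.0442). In P15 over P18 of the Tnc-CreERT2 line 0 of 26 and 0 of 20 passed, against 0.729% of all genes. In the Cdh2-CreERT2 line 0 of 26 and 0 of 20 passed too, against 0.0%. There 11 of the 26 and 12 of the 20 had a fitted value above 0. Their median log2 fold changes were 0.00 and 0.78, against 0.00 over all genes, and 10 of the 26 had 0 counts in P15. Among those read in Cdh2-CreERT2 P15, Fbln2 averaged 671 ± 301 CPM in P15 and 21.7 ± 17.0 in P18, Sparcl1 557 ± 243 and 151 ± 80.7, and Lrp1 108 ± 53.5 and 0.217 ± 0.281. Each of these 3 was in 16 of 16 P15 pools at 10 CPM, against 27, 46 and 0 of 50 P18 pools. They were chosen after their values were seen. Thbs4 and Tgfbi had 0 counts in Cdh2-CreERT2 P15.

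The 17 wells with no cell sorted into them held 0 reads of Tnc, Fn1, Postn and Thbs2. A well of 256675 counts held 417 reads of Spp1 and another of 44339 counts held 3 of Sparc, while another well held 1 read of Thbs1.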

How the data were processed

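The deposited table holds raw read counts per gene for every well, whole numbers that the authors had not normalized. Per the submitters' processing notes, STAR, SAMtools, featureCounts and Subread were used with mm10, with versions and strand setting not given in the sources used here. The Nextera XT libraries do not mark strand, so reads of overlapping antisense genes cannot be told apart.

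From these counts, pools that the labels mark as passed were summed per animal and population into 43 sums, and 152 failed pools were left out. edgeR 4.0.16 (R 4.3.3) scaled the sums by TMM, filtered genes with filterByExpr and ran the quasi-likelihood test with the animal as a block, since populations of an animal come from the same tumours. That test reports no SE. The SE given with a fitted log2 fold change is its absolute value divided by the square root of the F statistic. Animals differ between the lines, so P15 and P18 were each compared between lines without a block. The difference between the lines in P15 over P18 was fitted with the block. Adjusted p-values are Benjamini-Hochberg over all genes tested, with 0.05 as the threshold. DESeq2 1.42.0 and limma 3.58.1 were alternatives, with other scaling, filters, pool selection and each animal left out. Intervals and floors take reads as independent and cover the counting error of reads only. Reads carry no molecular identifiers, so the counting error of molecules is not covered. Scripts were tested on simulated data. Genes named were the 7 members in every comparison, the 5 genes most like Tnc and the 3 most like each other member, and list members that passed. One gene that this rule names is not reported here. The members and lists were chosen with earlier results of these data known.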

Additional observations from a re-analysis of the deposited data

Results flagged for a closer look

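In 12 of 49 gene and population groups of 4 or 5 animals, 1 animal stood farther from the others than Dixon's 95% limit allows. Chance flags about 1 in 20 groups, and many sums are near 0, where 1 pool sets an animal's value. Tnc was at 66.8 CPM in P16 of TENA2517, against 0 to 5.19 CPM in the other animals, and at 5.43 CPM in P09 of TENA2462, against 1.65 to 2.20 CPM. Fn1 was at 1573 CPM in P05 of TENA2462, against 9.38 to 460 CPM, and at 3.93 CPM in P09 of TENA2483, against 0 to 0.0153 CPM.

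P10 of TENA2462 stood apart for 2 genes. Sparc was at 156 CPM there, against 0.0260 to 15.1 CPM, and Postn at 69.3 CPM, against 0 to 0.157 CPM. Postn was at 137 CPM in P18 of Cdh1624, against 0.0291 to 3.43 CPM, at 19.4 CPM in P09 of TENA2483, against 0 to 0.0610 CPM, and at 2.47 CPM in P16 of TENA2517, against 0 to 0.0269 CPM. Thbs2 was at 123 CPM in P10 of TENA2483, against 0 to 6.82 CPM, at 28.5 CPM in P16 of TENA2517, against 0 to 0.161 CPM, and at 6.09 CPM in P18 of TENA2560, against 0.575 to 2.12 CPM.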

How the results depend on the processing

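No member passed the adjusted edgeR test, so no call could be lost under the 19 other settings, and some made calls. With DESeq2 the members called were 6 for Tnc-CreERT2 P05 over P18, 2 each for P15 and P17 over P18, 1 for P15 over P05, 2 for Cdh2-CreERT2 P15 over P18, 2 for the difference between lines and 1 for P15 between lines. With every pool weighing the same, limma-trend called 3 for P05, 1 for P15 and 2 for Cdh2-CreERT2 P15, each over P18. For Tnc-CreERT2 P05 over P18, adding the failed pools gave 1 member (Fn1), with 496 of 35998 genes called. Sums of at least 3 pools gave 2 (Fn1 and Sparc), with 647 of 33721 genes. Leaving out pools with Ptprc gave 1 (Sparc), with 264 of 33184 genes. Leaving out each animal in turn gave 0 to 1 (Sparc without Cdh1725, with 292 of 24910 genes). Without the replicate block, Sparc was the 1 member called for P05 and the 1 member called for P15, each over P18. That setting called 510 and 1012 of 33768 genes, where the main fit called 184 and 246. The causes were not tested.

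Genes called for P05 over P18 numbered 184, and 2 to 4564 under the other settings (1 to 292 with an animal left out). For P15 over P18 they numbered 246, and 122 to 4880 (42 to 409). For P15 over P05 they numbered 46, and 0 to 5651 (3 to 125). The highest count of each came from DESeq2. Of 77 mean levels, 48 fell by more than 1.5 times without the pool that added most, an alternative chosen after seeing the data.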

Other observations

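The pools of Cdh2-CreERT2 P15 shared further genes that were chosen after their values were seen. Myl9, a myosin light chain of contractile cells, reached 10 CPM in 15 of 16 pools with a median of 239 CPM, against 3 of 50 pools of Cdh2-CreERT2 P18. It also did so in 7 of 10 pools of Cdh2-CreERT2 P05, 14 of 32 of Tnc-CreERT2 P05 and 1 of 12 of Tnc-CreERT2 P15. Sox10, a transcription factor of neural crest and mammary epithelial cells, did so in 14 of 16 pools of P15 with a median of 85.1 CPM, and in 46 of 50 pools of P18 with a median of 40.4 CPM. Krt14, a basal keratin, had no read in the 16 pools of P15, against 22 of 50 pools at 10 CPM in P18. Krt14 reached 10 CPM in 0 of 10 pools of Cdh2-CreERT2 P05, 0 of 12 of Tnc-CreERT2 P15 and 3 of 32 of Tnc-CreERT2 P05 too. In Tnc-CreERT2 P15, Sox10 reached 10 CPM in 0 of 12 pools and Csf1r in 8 of 12. A list of 8 pericyte markers summed to 0 to 2.00 CPM in Cdh2-CreERT2 P15, with 4 of the 8 at 0 counts, and to 9.16 to 16.6 CPM in Cdh2-CreERT2 P18.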
